A study of Homo sapiens with 6 samples.

Results

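CXCL8 and the 4 CXC chemokine ligand genes described with it, CXCL1, CXCL2, CXCL3 and PPBP, were followed across empty vector, dnCEBP and dnFOS cells. The members were chosen by name from the CXC ligand cluster of chromosome 4, and count IDs were matched to symbols. They were 5 of 60612 gene IDs, and 4 of the 5 passed the filter on low counts among 15395 genes tested. RNA was sequenced in 6 libraries of KO52, an established acute myeloid leukemia line in which both alleles of CEBPA are mutated. All cells carried a lentiviral vector switched on by doxycycline and were sorted for GFP after doxycycline, and the control cells, called EV, carried an empty vector that makes GFP alone. The dnCEBP and dnFOS vectors encoded dominant negative peptides, of C/EBP and of FOS. Each peptide pairs with several proteins of its family, and the dimers cannot bind DNA. The induction lasted 72 h in the dnCEBP chromatin experiment of the study, and the time for the RNA libraries was not given in the sources used here. Each group held 2 libraries, and nothing in the labels says that they came from separate cultures, so p-values measure the spread between these libraries, which may be technical.

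CXC chemokines are small secreted proteins with a conserved pair of cysteines parted by 1 residue. CXCL8, also called interleukin 8, and the growth regulated ligands CXCL1, CXCL2 and CXCL3 carry an ELR motif ahead of these cysteines and draw neutrophils through CXCR2. CXCL8 also binds CXCR1. PPBP encodes platelet basic protein, which is stored in platelet granules and cut to NAP-2, a CXCR2 ligand. In monocytes and other cells the CXCL8 promoter is a textbook case of joint control by NF-kappaB, AP-1 and C/EBP proteins, and the messenger RNA carries AU-rich elements that shorten its life.

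The promoters of 3 members are shown because they carry different sites for the families that the peptides block. Each line gives the 250 bases before the RefSeq start, read 5′ to 3′ on the gene's strand, from the RefSeq annotation of GRCh38.p14. Capitals mark matches to an AP-1 motif (TGANTCA), C/EBP motifs (TTGCNNAA or TTGCAA), an NF-kappaB motif (GGNNTTTCC) and a TATA motif (TATAAA), searched on both strands. The windows were chr4:73740319-73740568 (plus strand) for CXCL8, chr4:74099196-74099445 (minus strand) for CXCL2 and chr4:73988191-73988440 (minus strand) for PPBP.
CXCL8: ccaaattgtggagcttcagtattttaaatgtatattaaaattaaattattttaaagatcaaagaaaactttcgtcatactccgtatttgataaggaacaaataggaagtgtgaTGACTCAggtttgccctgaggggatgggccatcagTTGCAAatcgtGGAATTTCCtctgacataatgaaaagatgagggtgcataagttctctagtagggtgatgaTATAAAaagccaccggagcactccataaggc
CXCL2: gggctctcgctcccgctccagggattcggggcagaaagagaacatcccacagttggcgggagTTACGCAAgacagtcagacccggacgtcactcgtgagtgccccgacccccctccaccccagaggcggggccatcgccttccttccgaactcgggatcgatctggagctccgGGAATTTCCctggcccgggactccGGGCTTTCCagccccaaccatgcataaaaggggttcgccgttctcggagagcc
PPBP: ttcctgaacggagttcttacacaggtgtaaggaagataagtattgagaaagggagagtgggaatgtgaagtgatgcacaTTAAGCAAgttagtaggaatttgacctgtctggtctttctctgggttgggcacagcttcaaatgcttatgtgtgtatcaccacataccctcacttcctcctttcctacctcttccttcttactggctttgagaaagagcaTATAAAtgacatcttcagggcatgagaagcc
The AP-1 match stood in the CXCL8 window alone among the 5 members, as TGACTCA at positions -137 to -131, with position -1 next to the start. It was followed by TTGCAA at -102 to -97, GGAATTTCC at -91 to -83 and TATAAA at -31 to -26. CXCL2 had a C/EBP match on the opposite strand at -188 to -181 and NF-kappaB matches at -77 to -69 and -53 to -45. CXCL1 and CXCL3 had the same pair of NF-kappaB matches, GGAATTTCC and GGGCTTTCC, and no AP-1 or C/EBP match. PPBP had a C/EBP match on the opposite strand at -171 to -164 and TATAAA at -31 to -26, and no NF-kappaB match. No window held TGACGTCA, the CRE motif, or TGATGCAA, a joined C/EBP and AP-1 motif. Of 34943 RefSeq promoter windows of this length, 6.59% held the AP-1 motif, 9.06% TTGCNNAA, 4.74% TTGCAA, 5.48% the NF-kappaB motif, 10.8% TATAAA, 1.63% TGACGTCA and 0.776% TGATGCAA. A match describes letters and is not a site shown to be bound. By global alignment, the windows of CXCL1 and CXCL3 were identical at 86.8% of aligned bases, those of CXCL2 and CXCL3 at 83.3% and those of CXCL1 and CXCL2 at 82.3%. The other pairs lay between 43.6% and 52.3%. The CXCL8 window held 37.6% G and C, against 62.8% to 65.6% in CXCL1, CXCL2 and CXCL3.

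The members lie within 358.8 kb of chromosome 4 by their starts (GENCODE 29, GRCh38). CXCL8 (ENSG00000169429; chr4:73740506-73743716) and CXCL1 (ENSG00000163739; chr4:73869393-73871242) are on the plus strand. PPBP (ENSG00000163736; chr4:73987038-73988197), CXCL3 (ENSG00000163734; chr4:74036589-74038807) and CXCL2 (ENSG00000081041; chr4:74097035-74099293) are on the minus strand. In 75-base windows of their transcripts, the length of a read, 7.07% of those of CXCL2 and 4.57% of those of CXCL3 also occurred in another gene, mostly in each other. For CXCL1 the share was 0.245%, and for CXCL8 and PPBP it was 0. How reads that match several genes were counted was not given in the sources used here, so the split between CXCL2 and CXCL3 is uncertain to that extent.

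Total counts per library ran from 9862994 in dnFOS replicate 2 to 27663179 in dnCEBP replicate 1, and 3 counts, taken as the floor, were worth 0.111 to 0.290 CPM, the counts per library size scaled by TMM factors. The dnFOS libraries were the shallowest. Such floors hold for counting error alone, as the reads carried no molecular identifiers. Genes of immature myeloid cells, among them CD34, KIT, CD33 and MPO, were listed together with PTPRC, and all were tested. The list summed to 853 to 907 CPM in EV libraries, with dnCEBP at 806 to 824 and dnFOS at 691 to 705. PTPRC was its largest part, and its EV mean was 399.7 CPM, beside 491 for dnCEBP and 317.1 for dnFOS. The dnCEBP sum hides a fall of MPO from a mean of 216.6 CPM to 58.2 (log2 fold change -1.89, edgeR adjusted p = 5.0e-13). PTPRC was higher there and not called by edgeR (0.30, edgeR adjusted p = 0.0814). Of the 7 listed genes edgeR called 1 in dnCEBP against EV, DESeq2 2 and limma-voom 3. In dnFOS against EV all 7 had log2 fold changes below 0, and edgeR called 2 lower, beside 7.76% of all genes. These were MPO, with a dnFOS mean of 146.4 CPM (-0.56, edgeR adjusted p = 0.000273), and PTPRC (-0.33, 0.00663). DESeq2 and limma-voom called 2 each. FOS had 22.2 and 29.1 CPM in EV and 30.9 and 26.0 in dnFOS, and CEBPA 393 and 381.5 in EV and 389 and 345 in dnCEBP. These levels do not measure the peptides, so they do not check the labels.

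CXCL8 was by far the most abundant member, and its level was 5.20 times lower in dnFOS than in EV. The EV libraries held 5943 and 5711 counts of it, the dnCEBP libraries 7880 and 5857, and the dnFOS libraries 715 and 537. On library sizes scaled by TMM factors, EV stood at 249.3 and 261.5 CPM, dnCEBP at 291.6 and 282.7, and dnFOS at 46.6 and 51.9. Both dnFOS libraries lay far below the other 4, and both dnCEBP libraries lay above both EV libraries. The mean CPM of EV was 255.4 ± 8.58, that of dnCEBP 287.1 ± 6.26 and that of dnFOS 49.2 ± 3.79 (SD, n = 2). The log2 fold change of dnFOS against EV was -2.38 ± 0.09 (SE; 95% interval -2.57 to -2.19; edgeR quasi-likelihood test, Benjamini-Hochberg adjusted p = 1.27e-17). This was 4.57 to 5.92 times lower, and CXCL8 had the lowest p of the 15395 genes in that comparison while ranking 60 from the lowest log2 fold change. Against dnCEBP, the level in dnFOS was 5.84 times lower (log2 fold change -2.55 ± 0.09, edgeR adjusted p = 2.06e-18). In dnCEBP against EV the log2 fold change was 0.17 ± 0.08 and was not called (95% interval -0.0023 to 0.34; edgeR adjusted p = 0.425). That interval spans 0.998 to 1.27-fold.

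CXCL2, a growth regulated ligand, was lower in dnFOS by a smaller factor. The EV libraries held 10.7 and 9.16 CPM, the dnCEBP libraries 8.84 and 10.6, and the dnFOS libraries 4.75 and 6.19. The dnFOS values lay below all others, and the EV and dnCEBP values overlapped. The mean CPM of EV was 9.93 ± 1.09, that of dnCEBP 9.73 ± 1.26 and that of dnFOS 5.47 ± 1.01 (SD, n = 2). The level in dnFOS was 1.84 times lower than in EV (log2 fold change -0.88 ± 0.21; 95% interval -1.30 to -0.46; edgeR adjusted p = 0.00394) and 1.80 times lower than in dnCEBP (-0.85 ± 0.21, edgeR adjusted p = 0.00513). Without dnFOS replicate 1 CXCL2 was no longer called, with log2 fold changes of -0.68 against EV (edgeR adjusted p = 0.0724) and -0.65 against dnCEBP (0.0976). Without dnCEBP replicate 2 the call against dnCEBP was lost as well (-0.71, edgeR adjusted p = 0.0514). The difference of dnCEBP from EV was -0.03 ± 0.18 (95% interval -0.41 to 0.34; edgeR adjusted p = 0.968).

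CXCL3, a growth regulated ligand whose transcript shares sequence with that of CXCL2, was low in all libraries. The EV libraries held 63 and 47 counts of it, the dnCEBP libraries 46 and 43, and the dnFOS libraries 12 and 18. In CPM these were 2.64 and 2.15, 1.70 and 2.08, and 0.781 and 1.74. Both dnFOS values were below both EV values, while dnFOS replicate 2 lay between the dnCEBP libraries. The log2 fold change of dnFOS against EV was -0.99 ± 0.41 and did not pass the test (95% interval -1.83 to -0.16; edgeR adjusted p = 0.102). Leaving out dnFOS replicate 1 gave -0.46, and leaving out the other dnFOS library gave -1.61 (edgeR adjusted p = 0.596 and 0.0554). The values were -0.35 ± 0.35 for dnCEBP against EV (edgeR adjusted p = 0.758) and -0.64 ± 0.42 for dnFOS against dnCEBP (edgeR adjusted p = 0.343). With 1 library left out at a time, these ran from -0.50 to -0.19 and from -1.26 to -0.11.

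PPBP, the platelet ligand, had its highest mean in dnCEBP. The EV libraries held 40 and 24 counts of it (1.68 and 1.10 CPM), the dnCEBP libraries 66 and 70 (2.44 and 3.38 CPM), and the dnFOS libraries 43 and 18 (2.80 and 1.74 CPM). All 4 libraries with a peptide were above both EV libraries, and the dnCEBP and dnFOS values overlapped. The lower dnFOS value, 1.74 CPM on 18 counts, was close to the higher EV value, 1.68 CPM on 40 counts. No comparison passed the test. The log2 fold change was 1.05 ± 0.35 in dnCEBP against EV (95% interval 0.34 to 1.76; edgeR adjusted p = 0.171, and 0.00507 before adjustment) and 0.73 ± 0.38 in dnFOS against EV (edgeR adjusted p = 0.202). Against dnCEBP, dnFOS was at -0.32 ± 0.35 (edgeR adjusted p = 0.618). With 1 library left out at a time, the 3 values ran from 0.77 to 1.39, from 0.32 to 1.08 and from -0.73 to -0.046, and none was called. The value of dnFOS against EV was lowest without dnFOS replicate 1 and 0.46 without EV replicate 2, and that of dnFOS against dnCEBP was nearest to 0 without dnFOS replicate 2.

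CXCL1 was not tested. The EV libraries held 1 and 3 counts of it, the dnCEBP libraries 5 and 2, and the dnFOS libraries 1 and 0, so both EV and both dnFOS libraries were at or under the floor and no fold is given. At this depth a difference in CXCL1 was not detectable.

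**Figure D1:**
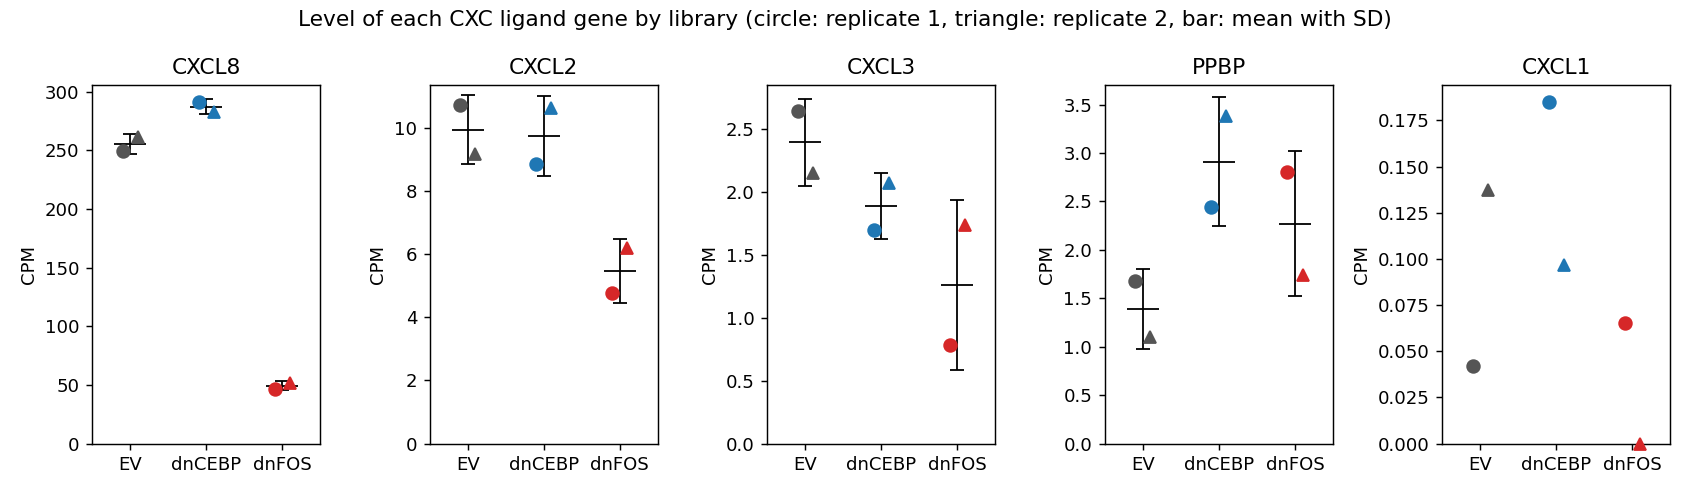
CPM of each member in each library, 1 panel per gene with its own linear axis from 0. Circles are replicate 1, triangles replicate 2, and black bars the mean with SD over 2 libraries, left out for CXCL1, which was near the floor. The dnFOS libraries stand lowest for CXCL8, at 46.6 and 51.9 CPM, and for CXCL2, at 4.75 and 6.19 CPM.

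In dnFOS against EV, 2 of the 4 tested members passed an adjusted p of 0.05, and both were lower. Of all genes tested, 15.0% were called in that comparison and 7.76% were called lower. Both dnFOS libraries were below both EV libraries for 3 of the 4 members, CXCL8, CXCL2 and CXCL3, and for 28.4% of all genes tested. The median log2 fold change of the 4 members was -0.94, beside 0.004 over all genes. Against dnCEBP the same 2 members were called lower in dnFOS, where 14.7% of all genes were called, 7.84% lower, and 25.9% had both dnFOS libraries below both dnCEBP libraries, as did these 2 members. The median of the members was -0.74, beside 0.02 over all genes. In dnCEBP against EV, edgeR called 0 of the 4 members, DESeq2 and limma-voom also called 0, and 1 (PPBP) had an unadjusted p under 0.05. In that comparison 1.07% of all genes were called and 0.448% were called lower. The comparisons with EV share the EV libraries.

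**Figure D2:**
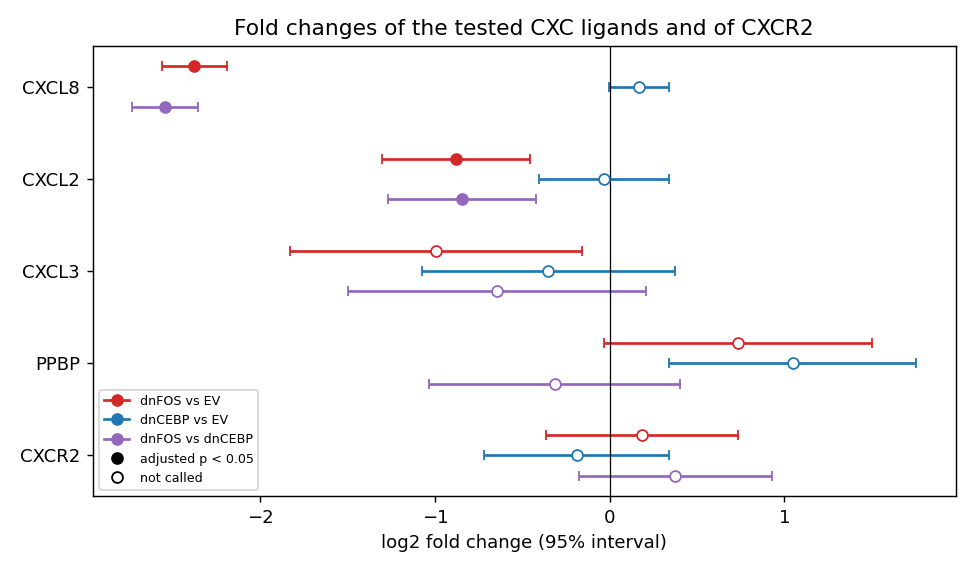
Log2 fold changes of the 4 tested members and of CXCR2 with 95% intervals from the edgeR fit, for the 3 comparisons of groups. Filled points passed an adjusted p under 0.05. CXCL8 lies at -2.38 against EV and -2.55 against dnCEBP in dnFOS, and the only other filled points are those of CXCL2.

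Levels of different genes were compared per kilobase of exonic length. In EV the mean level of CXCL8 was 112.3 CPM per kb, of CXCL2 6.62, of PPBP 1.94 and of CXCL3 1.08, and no neighbours in this order overlapped between libraries. CXCL8 ranked 212 in EV and 198 in dnCEBP of 12167 protein-coding genes tested, and 1079 in dnFOS. CXCL2 ranked 4051 in EV and 6232 in dnFOS. In dnFOS the order was CXCL8 at 21.7 CPM per kb, CXCL2 at 3.65, PPBP at 3.18 and CXCL3 at 0.568, and CXCL2 (3.17 and 4.13) overlapped with PPBP (3.92 and 2.43). CXCL8 took 91.1% and 92.9% of the members' summed level per kb in the EV libraries, with dnCEBP at 92.6% and 90.7% and dnFOS at 73.2% and 75.7%. Its share was thus lower in both dnFOS libraries than in the other 4, by 17.6 percentage points from EV. With 2 libraries a group, the exact two-sided permutation test gave p = 0.333, the smallest it allows. The difference of dnCEBP from EV was -0.394 points (exact permutation p = 0.667). As a share of all counts, CXCL8 took 0.0243% and 0.0259% in EV, with dnCEBP at 0.0285% and 0.0270% and dnFOS at 0.00490% and 0.00545%.

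CXCR2, the receptor that the 5 ligands share, was low and was not called in any comparison. The EV libraries held 3.69 and 3.75 CPM, the dnCEBP libraries 3.55 and 2.94, and the dnFOS libraries 4.95 and 3.38. The dnFOS libraries stood on both sides of EV. The log2 fold change was 0.19 ± 0.27 in dnFOS against EV (edgeR adjusted p = 0.704) and -0.19 ± 0.26 in dnCEBP against EV (edgeR adjusted p = 0.842), with 95% intervals of -0.36 to 0.74 and -0.72 to 0.34. CXCR1, the other receptor of CXCL8, had at most 7 counts in a library, and ACKR1, a scavenging receptor, at most 2. The other 12 CXC ligand genes were all too low to test. Of the 8 on chromosome 4, CXCL6, PF4V1, CXCL9, CXCL11 and CXCL13 had no count in any library, and PF4, the platelet chemokine beside PPBP, had 2 to 7. CXCL16, on another chromosome, had 1 to 16. A count of 0 allows up to 0.111 to 0.290 CPM, so levels under this were not detectable.

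The neighbours of the members were then examined. Within 1 Mb of the ends of the cluster, 45 genes were annotated and 12 were tested, of which 8 are not members. These were COX18, ANKRD17, AC053527.1, ALB, MTHFD2L, AC093677.2, AREG and PARM1. edgeR called 0 of the 8 in dnFOS against EV, limma-voom called 0, DESeq2 called 0 of the 3 for which it gave an adjusted p, and 2 had an unadjusted p under 0.05. The lowest adjusted p by edgeR was 0.102, that of MTHFD2L, a mitochondrial folate enzyme gene next to CXCL2, with a log2 fold change of 0.34 ± 0.14. AREG, which encodes the EGF receptor ligand amphiregulin, had -1.25 ± 0.79 on a total of 70 counts over 6 libraries (edgeR adjusted p = 0.321). With library totals in place of TMM factors, ANKRD17 and MTHFD2L were called higher (edgeR adjusted p = 0.0436 and 0.0350). Without dnFOS replicate 1 COX18 was called higher (0.0339). In dnCEBP against EV edgeR called 0 of the 8, with 0 at an unadjusted p under 0.05. There limma-voom called 0, and DESeq2 0 of 3. The antisense genes AC053527.1 and AC093677.2 are uncertain, since the use of strand in counting was not given in the sources used here. The median log2 fold change of the 8 in dnFOS against EV was 0.24. Calls lower among these genes were thus at CXCL8 and CXCL2.

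**Figure D3:**
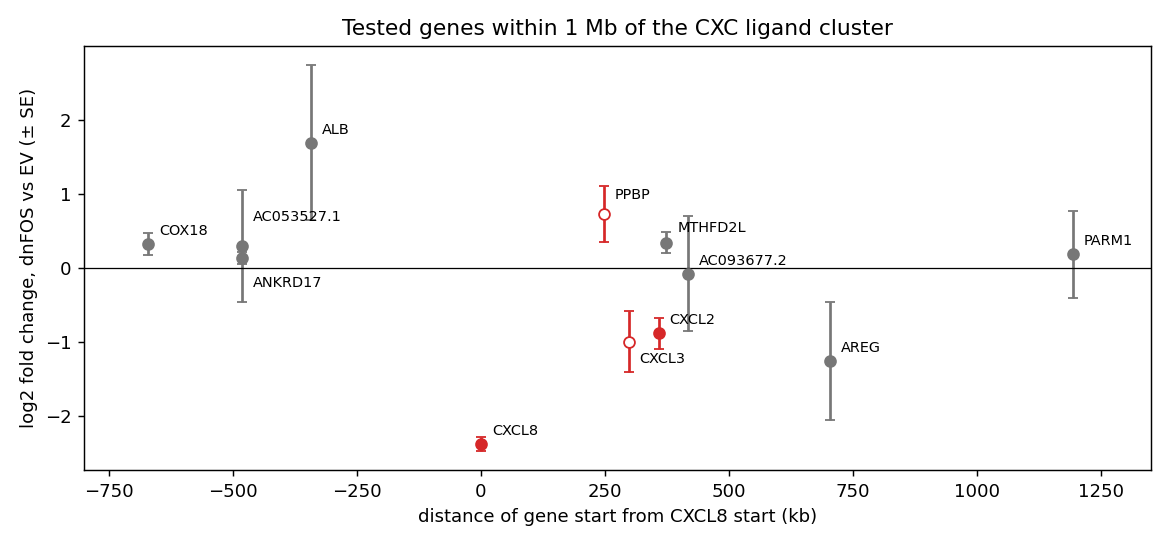
Log2 fold change of dnFOS against EV, with SE, of the 12 tested genes within 1 Mb of the cluster, by the distance of their starts from that of CXCL8 in kb. Members are red, filled where called, and other genes are grey, none of them called. CXCL8 at -2.38 and CXCL2 at -0.88 are the called genes.

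NF-kappaB proteins are the other main regulators of CXCL8 and of the growth regulated ligands. Of 14 tested genes of the NF-kappaB family, its inhibitors and kinases, 5 were called lower in dnFOS against EV and 0 higher. Of all genes tested, 7.76% were called lower in that comparison. Log2 fold changes were below 0 for 12 of the 14 and above 0 for 2. NFKBIA, the inhibitor that holds NF-kappaB in the cytoplasm, stood at 44.7 and 36.2 CPM in EV, with dnCEBP at 36.3 and 37.6 and dnFOS at 23.1 and 23.7. Both dnFOS libraries were below the other 4, with a log2 fold change against EV of -0.79 ± 0.12 (edgeR adjusted p = 5.53e-05). TNFAIP3, which encodes the ubiquitin-editing inhibitor A20, had 17.0 and 23.7 CPM in EV and 12.2 and 9.57 in dnFOS (-0.89 ± 0.17, edgeR adjusted p = 0.000679). NFKB2, the precursor of p52, fell by 0.67 on the log2 scale (edgeR adjusted p = 0.0022), and NFKBIB, another inhibitor, by 0.87 (0.012). NFKBIB lost its call without dnFOS replicate 1 (-0.75, edgeR adjusted p = 0.107), without EV replicate 2 (-0.83, 0.0580) and with a trend on GC content and length removed (-0.66, 0.0546). The fifth was RELA at -0.39 (edgeR adjusted p = 0.0473), which encodes the subunit p65 and was named after its value was seen. RELA was not called with DESeq2, limma-voom or library totals (adjusted p = 0.0753, 0.0769 and 0.161) or after removal of the GC and length trend (0.188). It also lost its call without dnFOS replicate 1, dnFOS replicate 2 or EV replicate 2 (-0.43, -0.36 and -0.23; edgeR adjusted p = 0.0696, 0.184 and 0.422). NFKB1, the precursor of p50, was at -0.15 and not called. The median of the 14 genes was -0.45, beside 0.004 over all genes. The count of 5 fell to 3 without dnFOS replicate 1 or without EV replicate 2, which left NFKBIA, TNFAIP3 and NFKB2. It was 4 with DESeq2 and with limma-voom. In dnCEBP against EV, 0 of the 14 were called by edgeR, DESeq2 or limma-voom, 1 had an unadjusted p under 0.05, and the median was -0.0025. In dnFOS against dnCEBP, edgeR called 4 of the 14 lower and 0 higher, beside 7.84% of all genes called lower. These were NFKB2, NFKBIA, TNFAIP3 and NFKBIZ (-0.755, edgeR adjusted p = 0.00603), the last named after its value was seen. RELA and NFKBIB were not called there (-0.19 and -0.36, edgeR adjusted p = 0.390 and 0.372). DESeq2 and limma-voom also called 4 each.

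**Figure D4:**
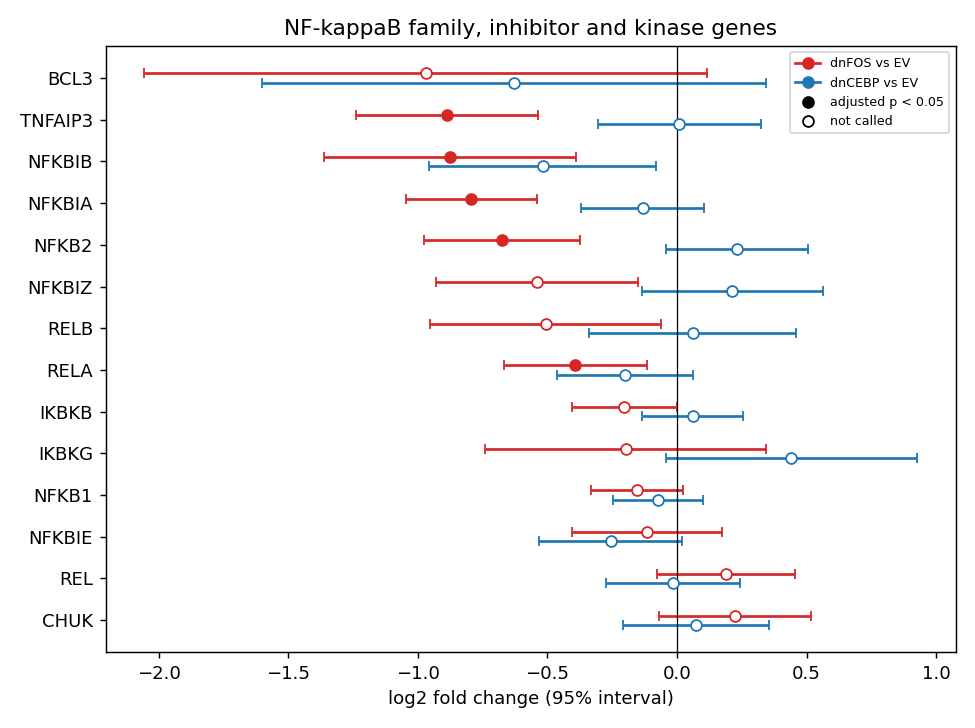
Log2 fold changes with 95% intervals of 14 genes of the NF-kappaB family, its inhibitors and kinases, ordered by the value in dnFOS against EV. Filled points passed an adjusted p under 0.05. The 5 filled points, all in dnFOS, lie between -0.89 and -0.39, less far from 0 than CXCL8 at -2.38.

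Inducers of CXCL8, their receptors and adaptors were counted next. Of 13 tested, 1 was called lower in dnFOS against EV and 0 higher, beside 7.76% of all genes called lower. Values were below 0 for 9 of the 13 and above 0 for 4. The called gene was TNFRSF1A, the main receptor of tumor necrosis factor, which fell by 0.33 on the log2 scale (edgeR adjusted p = 0.0309). It lost the call without dnFOS replicate 2 (-0.20, edgeR adjusted p = 0.341) and without either EV library (-0.28 and -0.40, edgeR adjusted p = 0.242 and 0.0509), with library totals (-0.23, 0.138) and after removal of the GC and length trend (-0.17, 0.218). IL1B, which encodes interleukin 1 beta and was named after its value was seen, was at 60.4 and 50.5 CPM in EV and 56.7 and 52.6 in dnFOS (log2 fold change -0.02 ± 0.10, edgeR adjusted p = 0.924). TNF, the cytokine itself, was higher in dnCEBP, at 10.1 and 9.80 CPM against 6.76 and 3.98 in EV (0.89 ± 0.21, edgeR adjusted p = 0.0306). That was the 1 inducer called there by edgeR, beside 1.07% of all genes. DESeq2 called 0 and limma-voom 2, and 4 had an unadjusted p under 0.05. The TNF call was lost with DESeq2 (adjusted p = 0.0989), with library totals in place of TMM factors (edgeR adjusted p = 0.0665) and without EV replicate 2, where the value was 0.56 (edgeR adjusted p = 0.412). It was lost also without dnCEBP replicate 1 or 2 (0.86 and 0.91, edgeR adjusted p = 0.0894 and 0.209). In dnFOS against dnCEBP, 4 of the 13 were called, beside 14.7% of all genes, and these are named after their values were seen. TNF was lower in dnFOS at -1.25 ± 0.24 (edgeR adjusted p = 0.000479). The adaptor gene MYD88 was higher at 0.88 ± 0.19 (edgeR adjusted p = 0.00126), TLR4, the endotoxin receptor, at 0.58 ± 0.14 (0.00471) and the kinase IRAK1 at 0.39 ± 0.13 (0.0396). TLR4 lost its call without dnCEBP replicate 1 (0.48, edgeR adjusted p = 0.0766). IRAK1 lost it with DESeq2 (adjusted p = 0.0823) and without dnCEBP replicate 2, dnFOS replicate 1 or dnFOS replicate 2 (0.16, 0.32 and 0.44; edgeR adjusted p = 0.499, 0.192 and 0.0683). IL6 had no count in any library.

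Proteins that bind AU-rich elements control the life of these messenger RNAs. Of 10 genes tested, 3 were called in dnFOS against EV, beside 15.0% of all genes. ZFP36L1, which promotes decay, fell by 0.67 on the log2 scale (edgeR adjusted p = 0.00208). ZFP36L2, of the same family, and TIA1, which holds back translation, were higher by 0.38 and 0.41 (edgeR adjusted p = 0.0186 and 0.0022). Both lost their calls without dnFOS replicate 2 (0.14 and 0.28, edgeR adjusted p = 0.437 and 0.0793) and after removal of the GC and length trend (0.49 and 0.13, edgeR adjusted p = 0.107 and 0.289). ZFP36L2 also lost it without EV replicate 1 (0.32, edgeR adjusted p = 0.137). In dnCEBP against EV, 0 of the 10 were called by edgeR, DESeq2 or limma-voom, and 3 had an unadjusted p under 0.05. In dnFOS against dnCEBP, 3 of the 10 were called by each of these fits, beside 14.7% of all genes by edgeR. By edgeR 2 of them were higher and 1 lower.

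The transcripts of the 2 families that the peptides block were also listed. Of 9 tested AP-1 genes, 3 were called lower in dnFOS against EV and 0 higher, beside 7.76% of all genes called lower. The median of the 9 was 0.061, with 4 values below 0 and 5 above. The called genes were JUNB at -0.71 (edgeR adjusted p = 0.0106), ATF3 at -1.49 (0.0272) and BATF at -0.53 (0.0279). JUNB encodes a partner of FOS, and ATF3 and BATF encode other leucine zipper proteins that pair with JUN proteins. Without dnFOS replicate 1, JUNB (-0.53, edgeR adjusted p = 0.142) and ATF3 (-1.001, 0.260) were not called, and without dnFOS replicate 2 BATF was not (-0.39, 0.260). Without EV replicate 1, ATF3 (-1.23, edgeR adjusted p = 0.191) and BATF (-0.51, 0.123) were not called, and without EV replicate 2 BATF was not (-0.57, 0.0647). BATF was not called with library totals either (-0.44, edgeR adjusted p = 0.0865). After removal of the GC and length trend only ATF3 was called, and DESeq2 and limma-voom called JUNB and BATF. FOS itself was at 0.16 ± 0.14 (edgeR adjusted p = 0.488), and -0.024 without EV replicate 1. Of 6 C/EBP genes, 3 were called in dnFOS against EV, beside 15.0% of all genes. DDIT3, which encodes the stress-induced member CHOP, fell by 1.53 (edgeR adjusted p = 1.16e-10) and CEBPE, the member of late granulocyte development, by 1.39 (0.00396). CEBPA was higher by 0.30 (edgeR adjusted p = 0.0145), a call lost without dnFOS replicate 2 or either EV library (0.27 to 0.33, edgeR adjusted p = 0.0595 to 0.140). CEBPB, the member best known at the CXCL8 promoter, had 8.89 and 10.1 CPM in EV and 7.03 and 5.90 in dnFOS and was not called (-0.54 ± 0.20, edgeR adjusted p = 0.0666). In dnCEBP against EV, 0 of the 9 AP-1 genes and 0 of the 6 C/EBP genes were called by edgeR, DESeq2 or limma-voom, with 0 and 2 at an unadjusted p under 0.05. DESeq2 gave no adjusted p for CEBPD. In dnFOS against dnCEBP, edgeR called 1 of the 9 AP-1 genes, BATF, lower (-0.49, edgeR adjusted p = 0.0435), beside 7.84% of all genes called lower. DESeq2 and limma-voom called 0 of the 9. Of the 6 C/EBP genes edgeR called 2, beside 14.7% of all genes. DDIT3 was lower (-1.36, edgeR adjusted p = 6.62e-10) and CEBPA higher (0.38, 0.00232).

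Profiles over the 6 libraries were set side by side by the root mean square (RMS) difference of log2 CPM, each profile centred on its own mean. All profiles share the same libraries, and a correlation over 6 libraries in 3 groups mostly reflects the group means. CXCL8 and CXCL2 ran in parallel with Pearson's r of 0.94, and differed in size with an RMS difference of 0.78. CXCL2 and CXCL3 were the closest members (RMS difference 0.23, r = 0.89). PPBP ran with none of them, with r between -0.44 and -0.11. Among 11206 protein-coding genes with a mean of at least 1 CPM, the nearest to CXCL8 was ENO2, the neuronal form of enolase, with an RMS difference of 0.21 (r = 0.997). Its mean was 48.9 CPM in EV, and its log2 fold change in dnFOS was -2.06. VEPH1, SEC14L2, SPON1 and SETBP1 followed, with RMS differences of 0.23 to 0.28, and VEPH1 and SEC14L2 had 3 counts in each dnFOS library. Nearest to CXCL2 was ITGA3, an integrin subunit (RMS difference 0.068), followed by PERP, ANXA2, SDC4 and PRDM8 (0.11 to 0.13). For CXCL3 these were C17orf49, RAPGEFL1, CFAP58, PTMS and ATF3 (0.11 to 0.20), and for PPBP they were GBP4, MUC4, EFCAB5, MCC and KLRB1 (0.17 to 0.24).

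**Figure D5:**
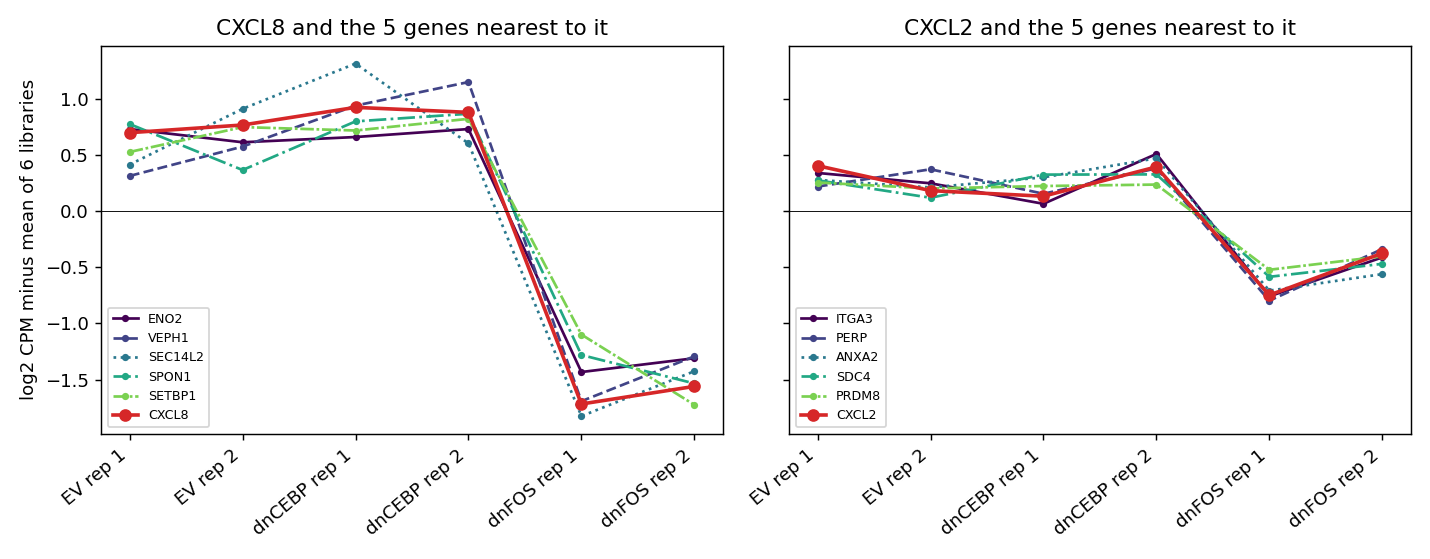
Log2 CPM minus the mean of the 6 libraries, for CXCL8 (left, red) and CXCL2 (right, red) with the 5 protein-coding genes of smallest RMS difference to each. All lines drop at the dnFOS libraries, to about the depth of CXCL8 on the left, where RMS differences are 0.21 to 0.28, and of CXCL2 on the right, where they are 0.068 to 0.13.

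Marker genes of other blood cells were read beside the ligands, since in bulk RNA fewer cells of a type and less RNA per cell cannot be told apart. Monocyte markers, of which 6 of 9 were tested, summed to 84.8 to 87.7 CPM in EV libraries. The dnCEBP libraries were at 71.8 to 81.3 and the dnFOS libraries at 58.9 to 67.5. This sum mainly reports LYZ, with an EV mean of 77.3 CPM and a dnFOS mean of 57.1. In dnFOS against EV, edgeR called 2 lower, LYZ and FCN1 (-0.44 and -2.42, edgeR adjusted p = 0.00233 and 0.0297), beside 7.76% of all genes. FCN1 had 5 and 1 counts in the dnFOS libraries. DESeq2 called 1 of 2 with an adjusted p, and limma-voom called 1. CD14, S100A8 and S100A9 were too low to test. Neutrophil markers, 4 of 6 tested, summed to 87.2 to 95.5 CPM in EV libraries, with dnCEBP at 60.8 to 68.1 and dnFOS at 98.7 to 113.4. Most of this was CSF3R, the G-CSF receptor gene, at 92.1 and 83.4 CPM in EV and 113 and 97.8 in dnFOS, and it was lower in dnCEBP than in EV (-0.50 ± 0.09, edgeR adjusted p = 0.00421). That call was lost without dnCEBP replicate 2 or EV replicate 1 (-0.42 in both; edgeR adjusted p = 0.183 and 0.0891). The granule genes MMP9 and LTF were lower in dnFOS than in EV (edgeR adjusted p = 0.0419 and 0.0214), on at most 5 counts per dnFOS library. Both calls were lost without dnFOS replicate 1 (edgeR adjusted p = 0.356 and 0.169) or EV replicate 2 (0.058 and 0.160), MMP9 also without EV replicate 1 (0.124) and LTF without dnFOS replicate 2 (0.0554). Of this pair limma-voom called MMP9 and not LTF, and DESeq2 gave no adjusted p for either. CAMP, the fourth tested, was at -2.01 and not called, the median of the 4 in dnFOS against EV was -2.11, and FCGR3B and MMP8 had no count in any library. Megakaryocyte and platelet markers, 6 of 10 tested, summed to 188.9 to 199.7 CPM in EV libraries. The dnCEBP libraries were at 210.1 to 246.8 and the dnFOS libraries at 105.5 to 114.4, with GP1BB at 0 in all libraries. ITGA2B made up most of this sum, and its EV mean was 186.9 CPM, beside 216.3 for dnCEBP and 105.1 for dnFOS. In dnFOS against EV all 6 tested markers had log2 fold changes below 0, with a median of -0.62. Of these edgeR called ITGA2B alone (-0.83, edgeR adjusted p = 2.94e-07). In dnCEBP against EV all 6 were above 0, with a median of 0.66, and 3 had an unadjusted p under 0.05. There edgeR and limma-voom called none, and DESeq2 called 0 of 4 with an adjusted p. PPBP was higher than in EV with either peptide, but neither difference was called. The direction of the sum beside PPBP thus rests mostly on ITGA2B and on uncalled changes. The lymphoid list summed to 115.1 to 122.4, 143.8 to 147.7 and 91.0 to 104.0 CPM, with MS4A1 at 0 in all libraries. Erythroid markers summed to at most 2.997 CPM in any library, and epithelial and fibroblast markers to 27.9 to 37.9 CPM. Their part in the differences of the ligands was not tested.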

How the data were processed

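RNA was measured in 6 KO52 libraries, 2 per group. Per the labels, the authors removed ribosomal RNA from total RNA, amplified the libraries by 15 PCR cycles and read 75 bases from both ends. They deposited whole-number counts for 60612 gene IDs per library, without normalization. The submitters' processing notes name Trimmomatic, HISAT2, featureCounts and Subread and the build hg38, while the annotation, the use of strand and the treatment of reads matching several genes were not given in the sources used here. Groups came from the treatment labels. Symbols, coordinates and exonic lengths came from GENCODE 29 (58394 IDs matched), and promoters of all 5 members from RefSeq. The RefSeq start of CXCL1 is the same base as its GENCODE start, and for every other member it lies further inside the GENCODE span.

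The fit used edgeR 4.0.16 under R 4.3.3 (filterByExpr with a minimum count of 10, TMM factors, robust quasi-likelihood fit of a mean per group over 6 libraries with 3 residual degrees of freedom, two-sided). This left 15395 of 27870 genes with a count. Benjamini-Hochberg adjustment ran over all of these, and genes were called under 0.05. Standard errors came from the log2 fold change and its F statistic. The alternatives were other filters, scalings and fits, DESeq2 1.42.0, limma-voom (limma 3.58.1), a replicate block, a test against a 1.5-fold change, removal of a GC content and length trend, and each library left out. Counts of replicate libraries were further apart than sampling alone gives (chi-square per degree of freedom of 7.99 to 14.0). The code was tested on simulated data.

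The members, lists and alternatives were chosen with earlier results of these data known. Named were the members, tested CXC ligands and receptors, tested neighbours within 1 Mb, up to 4 genes per list with the lowest p among those called against EV, and the 5 genes nearest each member in profile. FOS, CEBPB, IL1B, NFKB1, RELA, NFKBIZ, TLR4, MYD88 and IRAK1, the markers and untested ligands were named beside these.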

Additional observations from a re-analysis of the deposited data

How the results depend on the processing

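The log2 fold change of CXCL8 in dnFOS against EV stayed negative and called under all 17 alternatives, from -2.80 after removal of a GC and length trend to -2.28 with library totals alone, and from -2.46 to -2.30 with each library left out. Library totals shifted the median over all genes from 0.004 to 0.10 in this comparison, so -2.28 is -2.38 relative to that median. After that removal the value of CXCL8 in dnCEBP against EV turned to -0.0087. The cause was not tested. The count of members called in dnFOS against EV and in dnFOS against dnCEBP went from 2 to 1 in the test against a 1.5-fold change, where the null itself is wider, and ranged from 1 to 2 with each library left out. Without division by length, CXCL8 took 94.9% of the members' level in EV, 95.1% in dnCEBP and 84.5% in dnFOS. Signs turned for CXCL2 in dnCEBP against EV without dnCEBP replicate 1 (0.0958) or EV replicate 1 (0.0835), over a range of -0.168 to 0.0958, and for CXCR2 in dnFOS against EV without dnFOS replicate 1 (-0.137, range to 0.410). Among the neighbours in dnFOS against EV, they turned for AC053527.1 without dnFOS replicate 1 (-0.255) or EV replicate 1 (-0.058; range -0.255 to 0.743), for AC093677.2 with library totals (0.0177) and without dnFOS replicate 1 (0.326) or EV replicate 2 (0.191; range -0.497 to 0.326), and for PARM1 without dnFOS replicate 2 (-0.163; range to 0.519). Of the NF-kappaB, inducer, decay, AP-1 and C/EBP genes called in dnFOS against EV, DDIT3 alone was called in the test against a 1.5-fold change.

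Same-numbered libraries did not deviate together (r = 0.0174 for EV and dnCEBP, 0.0281 for EV and dnFOS, 0.0879 for dnCEBP and dnFOS), so the numbers were not read as pairs. With the replicate block, the log2 fold change of CXCL8 in dnFOS against EV was -2.38, that of CXCL2 was -0.88, and no member's call changed. The limits are 2 libraries per group, the shallower dnFOS libraries, at most 70 counts per library for CXCL3 and PPBP, and sequence shared between CXCL2 and CXCL3.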
